A study of Homo sapiens with 12 samples.

Results

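The AP-1 and immediate early genes described here are FOS, FOSB, FOSL2, JUN, JUNB, JUND, EGR1, ATF3, IER2 and DUSP1, taken from the gene count table by their symbols. All 10 symbols were listed among 25370 genes, and all 10 were among the 21132 genes with at least 1 read that were tested. RNA-seq libraries were made from T47D, an established luminal, estrogen receptor-positive breast cancer cell line. Every culture had first been kept in medium with 5% charcoal-stripped serum for 48 hours and then without serum for 24 hours. The 4 groups of 3 libraries, lettered a, b and c, then received vehicle, 10 nM anastrozole, 0.1 nM estradiol (E2), or both agents, for 12 hours according to the sample labels (the study's methods give a longer treatment). Anastrozole is an aromatase inhibitor, a drug that blocks the enzyme that makes estrogen from androgen, and no androgen was named among the agents. Nothing in the labels says that libraries a, b and c came from separate cultures or separate days, so p-values measure the spread between these libraries, which may be technical. All libraries come from 1 cell line, and changes in RNA per cell and in the share of responding cells cannot be told apart in bulk RNA.

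AP-1 is a transcription factor made of pairs of proteins of the basic leucine zipper class. JUN proteins pair with each other or with FOS proteins, FOS proteins need a JUN partner, and ATF3 belongs to the related ATF branch and can pair with JUN proteins. FOS, JUNB, EGR1, IER2 and DUSP1 are classical immediate early genes, whose transcription starts within minutes of a growth factor, serum or stress signal without new protein synthesis and usually falls again soon after. Serum starvation lowers many of them, and MAP kinase signaling to serum response factor and its partners raises them. Estrogen receptor alpha, besides binding its own DNA elements, is known to be tethered to AP-1 sites through JUN and FOS proteins. A sample taken hours after an agent is added therefore reads a sustained level of these transcripts, and the first pulse is not sampled here.

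Promoter windows of 300 bases, running from 250 bases before to 50 bases after the annotated start, were found for all 10 genes in RefSeq (GRCh38.p14), with 2 windows for ATF3. Of these, 5 are printed 5′ to 3′ on the strand of the gene: FOS, FOSL2 and ATF3 because their transcripts were called higher with an E2-containing treatment, JUN because its transcript was not, and EGR1 because it holds the serum response motif. In capitals are the TATA box TATAAA in FOS, the AP-1 site TGANTCA in FOSL2, the AP-1-like sequence TGACATCA in JUN and ATF3, and both CArG boxes, the binding motif of serum response factor, in EGR1.
FOS, chr14:75278578-75278877, plus strand: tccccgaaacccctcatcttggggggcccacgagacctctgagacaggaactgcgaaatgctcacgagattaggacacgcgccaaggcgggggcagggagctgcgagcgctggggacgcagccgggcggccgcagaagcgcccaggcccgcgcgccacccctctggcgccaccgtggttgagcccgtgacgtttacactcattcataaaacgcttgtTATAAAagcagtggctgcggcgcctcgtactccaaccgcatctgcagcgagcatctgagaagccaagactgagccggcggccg
FOSL2, chr2:28392608-28392907, plus strand: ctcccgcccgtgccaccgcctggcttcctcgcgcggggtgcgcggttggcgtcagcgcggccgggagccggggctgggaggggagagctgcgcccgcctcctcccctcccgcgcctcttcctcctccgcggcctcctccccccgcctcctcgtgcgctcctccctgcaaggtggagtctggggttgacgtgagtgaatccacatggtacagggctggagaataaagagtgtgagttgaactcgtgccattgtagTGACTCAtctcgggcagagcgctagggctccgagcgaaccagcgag
ATF3 (first window), chr1:212565157-212565456, plus strand: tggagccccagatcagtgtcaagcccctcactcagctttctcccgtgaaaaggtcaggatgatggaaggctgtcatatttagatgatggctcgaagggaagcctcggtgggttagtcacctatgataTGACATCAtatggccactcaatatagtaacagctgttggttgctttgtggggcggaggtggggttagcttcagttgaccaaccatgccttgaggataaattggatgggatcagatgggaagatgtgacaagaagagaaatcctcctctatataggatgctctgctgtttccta
JUN, chr1:58783998-58784297, minus strand: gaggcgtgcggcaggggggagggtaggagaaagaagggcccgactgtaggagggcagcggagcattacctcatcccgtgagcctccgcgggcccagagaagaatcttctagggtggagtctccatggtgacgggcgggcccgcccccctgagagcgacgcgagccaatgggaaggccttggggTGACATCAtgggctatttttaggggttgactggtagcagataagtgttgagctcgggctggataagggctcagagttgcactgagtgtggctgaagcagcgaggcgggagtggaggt
EGR1, chr5:138465229-138465528, plus strand: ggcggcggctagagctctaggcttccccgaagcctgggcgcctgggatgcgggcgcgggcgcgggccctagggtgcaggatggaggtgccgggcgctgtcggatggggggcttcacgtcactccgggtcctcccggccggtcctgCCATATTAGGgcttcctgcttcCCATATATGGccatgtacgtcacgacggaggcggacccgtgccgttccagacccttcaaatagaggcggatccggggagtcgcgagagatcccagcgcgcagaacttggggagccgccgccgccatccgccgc

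Each motif was searched on both strands. The AP-1 site TGANTCA matched only FOSL2 among the members, 4 bases after its start, and matched 7.71% of all 35116 windows. The full cyclic AMP element TGACGTCA was in the JUND and DUSP1 windows and in 1.85% of all. TGACATCA, which was added to the search after the sequences had been seen, was in JUN 67 bases before the start and in ATF3 123 bases before it, and in 2.61% of all windows. The shorter TGACG, also added later and contained in TGACGTCA, was in 9 of the 10 genes, with ATF3 the exception, and in 24.6% of all windows. EGR1 held CArG boxes 105 and 83 bases before its start, against at least 1 such box in 1.29% of windows, and no other member window held this motif. TATAAA was in 5 members (FOS, FOSB, JUNB, ATF3 in its second window, and DUSP1) and 11.5% of windows. The GC box GGGCGG was in 8 members and 45% of windows. The palindromic consensus estrogen response element was in none of the member windows and in 0.057% of all. These matches describe letters in these windows and not binding. Sites more than 250 bases before a start were not searched, so a member without a match may hold the motif further away.

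In GENCODE 44 on GRCh37, which has the main chromosomes of the hg19 build the submitters name, the 10 genes are protein-coding and lie on 5 chromosomes. FOS is at chr14:75745529-75748933, FOSB at chr19:45971253-45978437 and FOSL2 at chr2:28615315-28640184, all on the plus strand and with 4 exons each in the representative (MANE) transcript. The JUN genes have a single exon each, JUN at chr1:59242517-59249720 (minus), JUNB at chr19:12902300-12904129 (plus) and JUND at chr19:18390504-18392432 (minus). EGR1 is at chr5:137801168-137804992 (plus, 2 exons), ATF3 at chr1:212738676-212794119 (plus, 4 exons), IER2 at chr19:13261225-13265725 (plus, 2 exons) and DUSP1 at chr5:172195099-172198198 (minus, 4 exons). HOOK2, transcribed the other way, shares 14.2% of JUNB's exon bases, and 2 antisense noncoding genes share 21.5% and 30.7% of those of IER2. Whether reads were counted by strand was not stated, so reads in these overlaps, though not in the rest of each gene, cannot be assigned to one partner. Exon GC content ran from 50.2% in ATF3 to 69.9% in JUND, which lay at the 99.2 percentile of matched genes, with JUNB at 64.9% and IER2 at 61.6%.

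Libraries held 9914253 to 17009776 reads on genes (median 13538621). A count of 3 reads, used as the floor, corresponded to 0.177 to 0.303 CPM, the unit of levels here, which is a read count scaled to a common library size by TMM over all 12 libraries. The cells carried the luminal markers that define T47D: 12 of 12 were detected, with a summed level of 12210 to 13400 CPM. Of 15 markers of other cell types, 8 (ZEB1, KRT5, COL1A2, COL3A1, PTPRC, CD3E, PECAM1 and CDH5) were at or under 3 reads in every library. The summed level of the 15 was 99.3 to 105 CPM with vehicle, 96.7 to 104 with anastrozole, 92.4 to 102 with E2 and 106 to 110 with both agents, and COL1A1 alone gave 80.0 to 99.9 CPM. Below that sum, CD68 rose 1.64-fold with anastrozole (adjusted p = 0.00507) and 1.46-fold with E2 (adjusted p = 0.0153), and VIM rose 1.63-fold with E2 (adjusted p = 0.0432) and 1.67-fold with both agents (adjusted p = 0.0449), all by edgeR and at no more than 7.14 CPM. Of the 12 luminal markers, 3 were called lower with anastrozole, 8 with E2 and 1 with both agents by edgeR. Of all genes, 2.27%, 5.95% and 2.33% were called lower in the same order. The part of these markers in the results was not tested. Across 10931 well-measured genes, the log2 fold change against vehicle followed exon GC content with a Spearman rho of -0.53 for anastrozole, -0.55 for E2 and -0.03 for both agents, which matters most for the GC-rich JUND, JUNB and IER2. Fits with a GC offset are therefore given beside member calls and named calls that they change. The origin of the trend was not tested.

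Under vehicle the JUN side of AP-1 far outweighed the FOS side. Per kilobase of MANE transcript, JUND had the highest level at 41.3 CPM per kb (SD 4.58, n = 3), followed by JUN at 24.7 (SD 0.840). JUNB (16.9, SD 0.653), IER2 (16.1, SD 0.419) and ATF3 (14.9, SD 0.926) came next, and each of these differed from its neighbour in this order by less than the sum of their SDs. DUSP1 stood at 4.59 CPM per kb (SD 0.645) and FOSL2 at 3.61 (SD 0.139). FOS at 1.10 (SD 0.0978), EGR1 at 0.481 (SD 0.0695) and FOSB at 0.214 (SD 0.0182) were the 3 lowest. These 3 genes were thus counted from few reads per library, 27 to 64 for FOS, 14 to 33 for EGR1 and 6 to 22 for FOSB. FOSL1, the remaining FOS family gene, had only 1 to 9 reads per library and was not called in any comparison by edgeR.

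**Figure D1:**
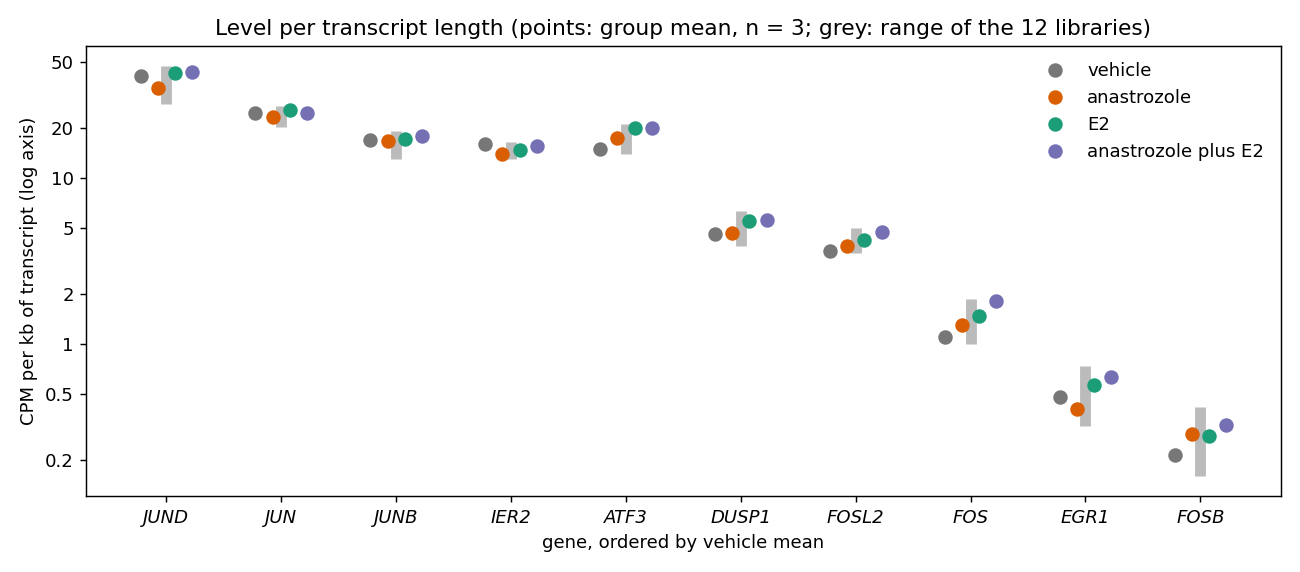
Level of each of the 10 genes per kilobase of MANE transcript, on a log axis in CPM per kb. Points are group means of 3 libraries and the grey bars run from the lowest to the highest of the 12 libraries. JUND is highest and FOSB lowest in each group, and the ATF3 mean lies below those of JUNB and IER2 with vehicle and above them in the treated groups.

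Expressed as a share of the per-kilobase level of the 7 AP-1 genes, JUN, JUNB and JUND made up 80.6% ± 1.09 (SD, n = 3) with vehicle. The share was 76.3% ± 3.86 with anastrozole, 76.7% ± 0.927 with E2 and 76.2% ± 1.45 with both agents. ATF3 made up 14.6% ± 0.742 with vehicle, 18.1% ± 3.55 with anastrozole, 18.0% ± 0.778 with E2 and 17.7% ± 1.16 with both agents. FOS, FOSB and FOSL2 together were 4.82% ± 0.426 with vehicle, 5.63% ± 0.314 with anastrozole, 5.37% ± 0.341 with E2 and 6.08% ± 0.316 with both. The shares are parts of 1 whole, so a fall in one is met by a rise in the others. Mean levels with anastrozole were 34.6 (JUND), 23.4 (JUN), 16.8 (JUNB) and 17.4 (ATF3) CPM per kb. With vehicle they were 41.3, 24.7, 16.9 and 14.9. With E2 and with both agents none of these means was below vehicle. The JUN share in anastrozole c (80.2%) lay within the vehicle range (79.4% to 81.5%). The JUN genes remained the bulk of the per-kilobase level of these 7 genes in every group, and other dimer partner genes were not part of the whole. The shares describe RNA and not protein.

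With both agents, 3 of the 10 genes rose against vehicle (FOS, FOSL2 and ATF3) and none fell, while 5.04% of all tested genes were called in that comparison by edgeR at an adjusted p of 0.05. With E2 alone, FOSL2 and ATF3 rose and none fell (2 of 10, against 12.0% of all genes). With anastrozole alone, none of the 10 passed, where 3.67% of all genes did. Of the 10, 3 (JUND, ATF3 and IER2) had an unadjusted p under 0.05 in edgeR, as did 3198 of all 21132 genes. None passed in DESeq2, which gave an adjusted p for 5 of the 10, or in limma-voom, which called 0.071% of all genes here. Without library b or c of both agents the share of 5.04% was 3.23% or 3.25%, and with the GC offset that of E2 was 7.58%. The expression filter filterByExpr kept all 10 members. With it the shares of all genes were 2.87% with anastrozole, 17.8% with E2 and 6.20% with both agents. The 2 of 10 with E2 are near that share. The share of all genes called with anastrozole moved to 7.81% without anastrozole c and to 0.904%, 1.16%, 1.36% and 1.42% without vehicle c, anastrozole a, vehicle a and anastrozole b. The median log2 fold change of the 10 was 0.33 with both agents, 0.23 with E2 and -0.01 with anastrozole, beside a median of 0.00 over all genes. The 3 comparisons share the vehicle libraries and are given side by side. The changes of the called members were small, between 1.18-fold and 1.64-fold.

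**Figure D2:**
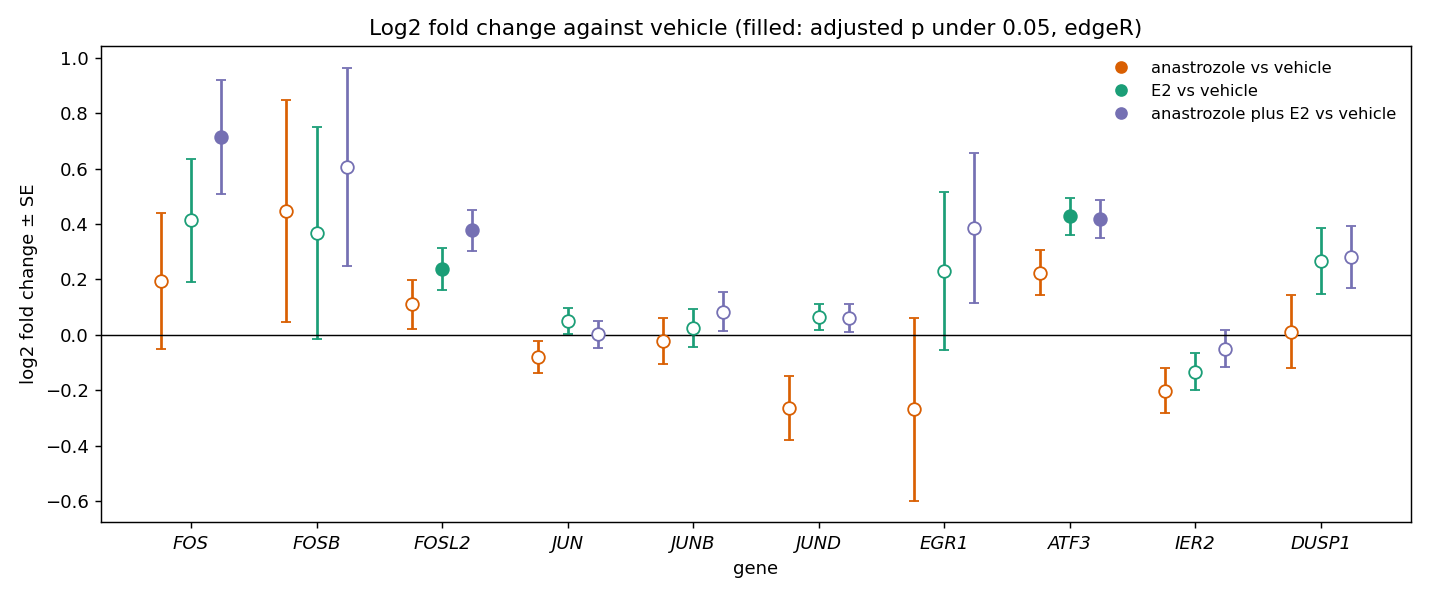
Log2 fold change against vehicle (vertical axis) of each of the 10 genes, as the edgeR estimate with bars of 1 SE, for anastrozole, E2 and both agents, with filled points for an adjusted p under 0.05. The 5 filled points are FOS with both agents and FOSL2 and ATF3 with E2 and with both agents, and the bars are longest for FOS, FOSB and EGR1, which have few reads.

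FOS encodes the founding partner of JUN in AP-1 and is among the fastest genes to answer serum. Its levels were 2.51, 2.36 and 2.10 CPM in the vehicle libraries (a, b, c), 2.09, 3.54 and 2.53 with anastrozole, 3.15, 3.07 and 3.05 with E2, and 3.95, 3.76 and 3.72 with both agents. The E2 libraries lay above every vehicle library and the libraries with both agents above all others, whereas the anastrozole libraries spread from just below vehicle to above E2. The log2 fold change was 0.71 with both agents (SE 0.21, adjusted p = 0.0155, edgeR), a 1.64-fold rise with a 95% interval of 1.24 to 2.17. With E2 it was 0.41 (SE 0.22, adjusted p = 0.249, edgeR) and with anastrozole 0.19 (SE 0.24, adjusted p = 0.77, edgeR). The FOS call rests on small counts: it was lost in DESeq2 (adjusted p = 0.184) and limma-voom (adjusted p = 0.0524), and in edgeR without vehicle c (log2 0.65, adjusted p = 0.097) or without library a of both agents (log2 0.69, adjusted p = 0.0602).

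FOSB, a close relative of FOS, ran at 0.728, 0.836 and 0.856 CPM with vehicle, 1.08, 0.606 and 1.57 with anastrozole, 1.26, 1.18 and 0.694 with E2, and 1.17, 1.53 and 1.001 with both agents. Only the libraries with both agents all lay above vehicle. No difference passed the test, and the log2 fold change with both agents was 0.61 with a 95% interval of -0.10 to 1.31 (adjusted p = 0.451, edgeR). This interval spans both no change and a change of the size seen for FOS.

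FOSL2 encodes FRA-2, and its RNA was the highest per kilobase among the FOS family genes in these cells. It was at 25.3, 23.6 and 23.9 CPM with vehicle, 25.2, 26.3 and 27.1 with anastrozole, 27.1, 27.2 and 31.4 with E2, and 30.7, 30.3 and 33.5 with both agents. Both E2-containing groups lay above every vehicle library, and the anastrozole group overlapped vehicle at a single library. FOSL2 was 1.30-fold higher with both agents than with vehicle (log2 0.38, SE 0.07, adjusted p = 4.35e-05, edgeR). That call held in DESeq2, limma-voom, the GC offset and every fit that left out 1 library. The E2 rise was 1.18-fold (log2 0.24, SE 0.08, adjusted p = 0.0202, edgeR), but it was lost in DESeq2 (adjusted p = 0.104), limma-voom (adjusted p = 0.0956) and without vehicle b (adjusted p = 0.072), vehicle c (adjusted p = 0.0883) or E2 c, where the log2 fold change was 0.16 (adjusted p = 0.298, edgeR).

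ATF3, a stress-inducible gene whose protein represses or activates depending on its partner, gave the firmest result. Its levels were 29.8, 26.9 and 30.2 CPM with vehicle, 35.5, 36.2 and 29.8 with anastrozole, 39.8, 39.0 and 38.0 with E2, and 38.5, 36.7 and 41.0 with both agents. Every library that received E2 lay above every library that did not, while anastrozole c sat within the vehicle range. ATF3 rose 1.34-fold with E2 (log2 0.43, SE 0.07, adjusted p = 1.15e-08, edgeR) and 1.34-fold with both agents (log2 0.42, SE 0.07, adjusted p = 1.86e-07, edgeR). Both calls held under all 9 other settings and in all 6 fits that left out 1 library. With anastrozole alone the log2 fold change was 0.22 (SE 0.08, adjusted p = 0.101, edgeR), and it was called without anastrozole c (log2 0.31, adjusted p = 0.0066) and with the GC offset (log2 0.24, adjusted p = 0.0415).

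**Figure D3:**
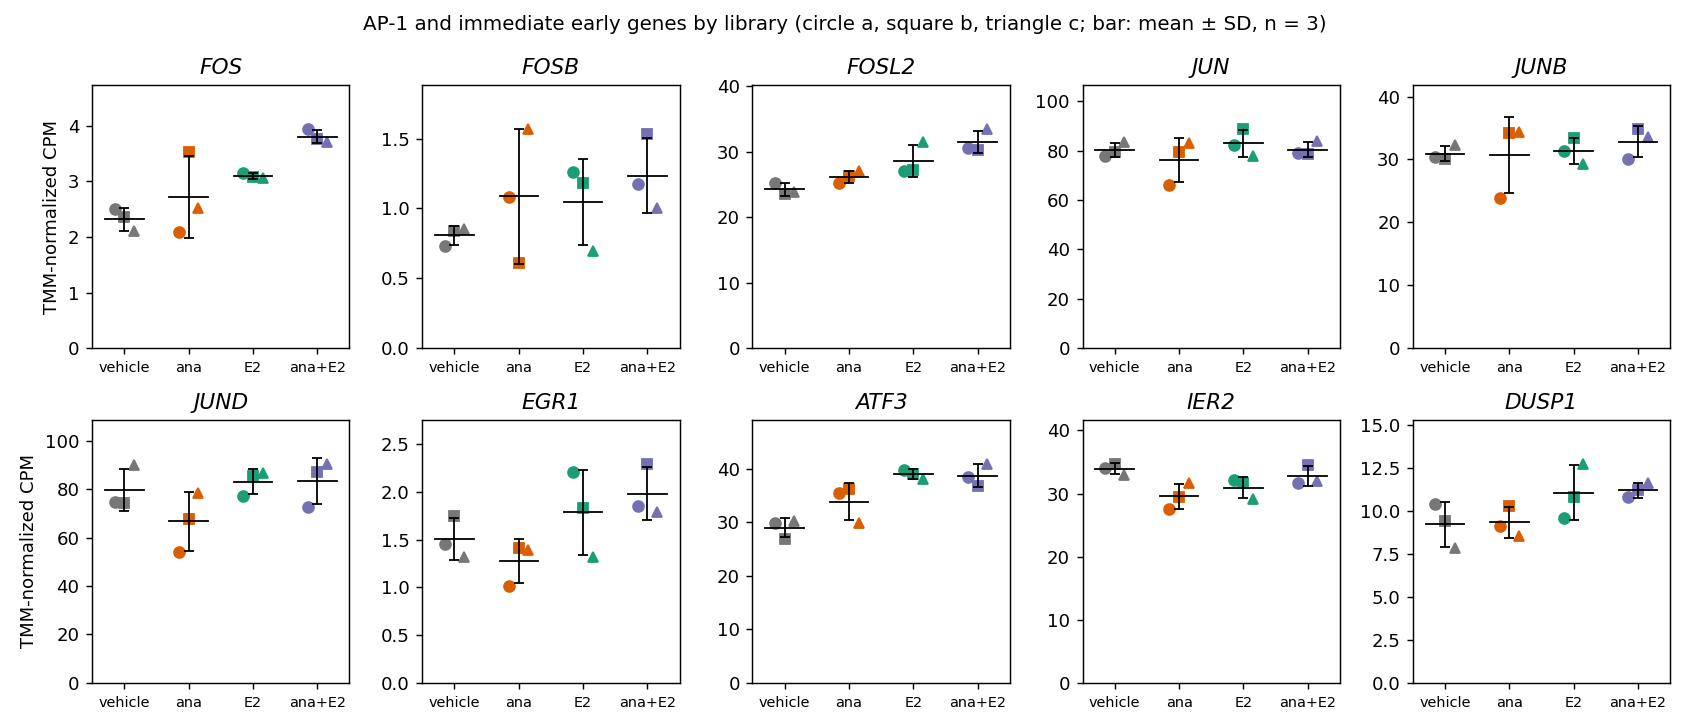
Level of each of the 10 genes in every library, in TMM-normalized CPM on axes that start at 0, for vehicle, anastrozole (ana), E2 and both agents (ana+E2), with the mean and SD of the 3 libraries as lines. The 6 libraries that received E2 sit above the other 6 for ATF3, and the 3 libraries with both agents sit above the other 9 for FOS.

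The JUN genes did not pass the test against vehicle. JUN, the main partner in classical AP-1, was at 78.0, 79.6 and 83.3 CPM with vehicle, 66.1, 79.4 and 83.1 with anastrozole, 82.3, 88.8 and 77.9 with E2, and 78.9, 78.5 and 83.9 with both agents, so that all groups overlapped. Its log2 fold change was -0.08 with anastrozole (95% interval -0.19 to 0.03), 0.05 with E2 (-0.04 to 0.14) and 0.00 with both agents (-0.09 to 0.09). These intervals leave out a rise of the size measured for ATF3. JUNB, a JUN paralog with weaker activation of AP-1 sites, was at 30.3, 30.1 and 32.3 CPM with vehicle, 23.8, 34.2 and 34.3 with anastrozole, 31.3, 33.4 and 29.3 with E2, and 30.05, 34.9 and 33.5 with both agents. The groups overlapped, and the log2 fold changes were -0.02, 0.02 and 0.08 in the same order. Under the 9 other settings JUNB lay between -0.05 and 0.12 with anastrozole and between 0.02 and 0.17 with E2. It lay between 0.08 and 0.10 with both agents. With 1 library left out, the anastrozole value was between -0.12 and 0.15. None of these fits called JUNB.

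JUND, which is expressed more steadily than its paralogs in most cells and is the most GC-rich member, depended on the library and the GC setting. It was at 74.8, 74.4 and 89.9 CPM with vehicle, 54.0, 67.8 and 78.5 with anastrozole, 77.4, 85.6 and 86.7 with E2, and 72.6, 87.1 and 90.6 with both agents. Anastrozole a and b lay below every vehicle library and anastrozole c within their range. The log2 fold change with anastrozole was -0.26 (SE 0.11, adjusted p = 0.298, edgeR), became -0.40 without anastrozole c (adjusted p = 2.52e-08, edgeR), and was -0.08 with the GC offset (adjusted p = 0.526). With E2 it was 0.06 (adjusted p = 0.459, edgeR), 0.16 without vehicle c (adjusted p = 0.0417) and 0.25 with the GC offset (adjusted p = 8.44e-07), while with both agents it was 0.06 (adjusted p = 0.647, edgeR) and 0.08 with the offset. JUND stayed below 0 with anastrozole and above 0 with E2 in every alternative and with any 1 library left out, while the size and the call varied with the setting. With 1 library left out, JUND was between -0.40 and -0.12 with anastrozole and between 0.02 and 0.16 with E2.

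EGR1 encodes a zinc-finger transcription factor outside AP-1 that is induced by the same signals. It was at 1.46, 1.75 and 1.32 CPM with vehicle, 1.01, 1.41 and 1.40 with anastrozole, 2.21, 1.83 and 1.32 with E2, and 1.85, 2.30 and 1.79 with both agents. The libraries with both agents lay above vehicle and the other groups overlapped it. The log2 fold change with both agents was 0.38 with a 95% interval of -0.14 to 0.91 (adjusted p = 0.572, edgeR), which spans both no change and a change larger than that of FOS.

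IER2, a small nuclear immediate early protein gene, was at 34.0, 34.7 and 33.0 CPM with vehicle, 27.6, 29.4 and 31.6 with anastrozole, 32.1, 31.6 and 29.1 with E2, and 31.7, 34.6 and 32.0 with both agents. Every library with anastrozole alone or E2 alone lay below every vehicle library, but the log2 differences did not pass the test, at -0.20 with anastrozole (SE 0.08, adjusted p = 0.157, edgeR) and -0.13 with E2 (SE 0.07, adjusted p = 0.215, edgeR). Without anastrozole c the former was -0.25 (adjusted p = 0.0397, edgeR). With the GC offset the values were -0.09 with anastrozole (adjusted p = 0.697, edgeR) and -0.01 with E2 (adjusted p = 0.986).

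DUSP1 encodes a phosphatase that switches off MAP kinases and so closes the feedback loop on immediate early transcription. It was at 10.4, 9.43 and 7.86 CPM with vehicle, 9.16, 10.3 and 8.55 with anastrozole, 9.62, 10.8 and 12.8 with E2, and 10.8, 11.2 and 11.7 with both agents. Only the libraries with both agents all lay above vehicle. The log2 fold change was 0.01 with anastrozole, 0.27 with E2 (SE 0.12, adjusted p = 0.141, edgeR) and 0.28 with both agents (SE 0.11, adjusted p = 0.145, edgeR), and neither of the latter passed although their unadjusted p values were 0.0258 and 0.0125.

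The question of what anastrozole added to E2 was answered by comparing both agents with E2 alone. By edgeR 0 of the 10 genes passed, where 6.74% of all genes did. This share was 9.32% with the expression filter, 0.937% with the GC offset, 4.19% without E2 c and 4.42% without library c of both agents. Of the 10, 1 (FOSL2, log2 0.14, 95% interval 0.01 to 0.28) had an unadjusted p under 0.05, as did 3848 of all 21132 genes. DESeq2, which gave an adjusted p for 3 of the 10, and limma-voom called 0 of the 10 as well. The log2 difference was 0.30 for FOS (95% interval -0.07 to 0.67) and -0.01 for ATF3 (-0.13 to 0.11). JUND stood at 0.00 here, and at -0.18 with the GC offset (adjusted p = 0.00797, edgeR). Over the well-measured genes, the log2 difference between both agents and E2 followed exon GC content with a rho of 0.68.

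What E2 added to anastrozole was read from both agents against anastrozole. All 10 estimates were above 0, though JUNB went to -0.02 with the GC offset, and JUNB, JUN and FOSB reached -0.06, -0.02 and -0.08 with 1 library left out. They had a median log2 difference of 0.23, and 6 had an unadjusted p under 0.05 in edgeR, as did 2888 of all 21132 genes. Over the well-measured genes, the log2 difference between both agents and anastrozole followed exon GC content with a rho of 0.57. All 10 members lay above the median GC content of matched genes, 48.2%. The part of this trend in the 10 estimates was not tested. FOSL2 alone was called, at 1.202-fold (log2 0.27, SE 0.08, adjusted p = 0.0283, edgeR), beside 2.90% of all genes. This share was 8.07% without anastrozole c and 1.11% to 1.65% without any 1 of the other libraries. The FOSL2 call was lost with the expression filter (adjusted p = 0.0562), limma-voom (adjusted p = 0.145) and the GC offset (adjusted p = 0.061), and in 5 of the 6 fits without 1 library. Those were without anastrozole a (adjusted p = 0.197) or b (adjusted p = 0.0965), and without library a (adjusted p = 0.0901), b (adjusted p = 0.0591) or c (adjusted p = 0.271) of both agents. FOS stood at 0.52 (SE 0.21, adjusted p = 0.184, edgeR), EGR1 at 0.65 (SE 0.30, adjusted p = 0.273) and ATF3 at 0.19 (SE 0.07, adjusted p = 0.145). JUND, at 0.32 (adjusted p = 0.481, edgeR), was called without anastrozole c (0.46, adjusted p = 6.32e-10) and without library a of both agents (0.42, adjusted p = 0.0173). Over all fits without 1 library it was between 0.18 and 0.46. With the GC offset it was called at a lower value (0.17, adjusted p = 0.0419, edgeR).

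Between the single agents, anastrozole against E2, 0 of the 10 genes passed in edgeR, beside 1.33% of all genes (2.33% with the GC offset). The share was 0.506%, 0.587%, 0.634% and 0.838% without E2 b, E2 c, anastrozole b and E2 a. Here 9 of the 10 estimates were below 0. An unadjusted p under 0.05 was found for 4 (JUN, JUND, ATF3 and DUSP1), and for 1858 of all 21132 genes. DESeq2, which gave an adjusted p for 7 of the 10, and limma-voom called 0 of the 10. ATF3 had a log2 difference of -0.20 (95% interval -0.35 to -0.05, adjusted p = 0.272, edgeR). JUN stood at -0.13 (adjusted p = 0.341, edgeR) and at -0.20 without anastrozole c (adjusted p = 0.0135). JUND stood at -0.32 (adjusted p = 0.306, edgeR). It was called without anastrozole c (-0.46, adjusted p = 1.34e-13), without E2 a (-0.37, adjusted p = 0.0185) and with the GC offset (-0.34, adjusted p = 2.17e-10). Over all fits without 1 library it was between -0.46 and -0.19.

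Whether the effect of each agent changed when the other was present was tested with an interaction term over the 12 libraries. By edgeR 0 of the 10 genes passed, beside 10.9% of all genes (14.4% with the expression filter and 2.62% with the GC offset). ATF3 and IER2 had an unadjusted p under 0.05, as did 4669 of all 21132 genes. DESeq2, with an adjusted p for 6 of the 10, and limma-voom called 0 of the 10. The term was -0.23 for ATF3 (95% interval -0.43 to -0.03, adjusted p = 0.133, edgeR), that is, both agents together gave less than the sum of the single log2 changes. It was 0.29 for IER2 (95% interval 0.08 to 0.49, adjusted p = 0.0636, edgeR). Both were called without anastrozole c (ATF3 -0.31, adjusted p = 0.0195, and IER2 0.34, adjusted p = 0.0182), the anastrozole library in which both lay nearest to vehicle. With the GC offset the term was -0.26 for ATF3 (adjusted p = 0.126, edgeR) and 0.06 for IER2 (adjusted p = 0.911), and for JUND it went from 0.26 (adjusted p = 0.558) to -0.09 (adjusted p = 0.649). For FOS the term was 0.11 and its interval, -0.49 to 0.71, is wider than any of its single log2 changes. Over the 10931 well-measured genes the interaction term followed GC content with a rho of 0.71.

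The other genes of the pathway were read from lists, of which all genes were listed and tested. Among 13 other AP-1 and dimer partner genes, none was called with anastrozole by edgeR, DESeq2 or limma-voom. Of the 13, 2 had an unadjusted p under 0.05 in edgeR, as did 3198 of all 21132 genes. Of all genes 3.67% were called with anastrozole, 12.0% with E2 and 5.04% with both agents. With E2, ATF2 rose (log2 0.17, adjusted p = 0.00616, edgeR), and JDP2 (-0.29) and MAFK (-0.12, adjusted p = 0.0389) fell, of which JDP2 encodes a repressor of AP-1. With the GC offset JDP2 kept its call (log2 -0.24, adjusted p = 0.0139, edgeR), whereas ATF2 (0.08, adjusted p = 0.391) and MAFK (0.02, adjusted p = 0.879) lost theirs, and neither of these passed in limma-voom. The count of 3 with E2 was 1 without E2 c and 2 or 3 without any other 1 library. With both agents, CREB5 alone rose (log2 0.78, SE 0.25, adjusted p = 0.0364, edgeR), from 1.52 to 1.63 CPM with vehicle to 2.36 to 2.96 CPM, and it was not called in DESeq2 (adjusted p = 0.285) or limma-voom (adjusted p = 0.0852). ATF2 was lower with both agents than with E2 (log2 -0.19, adjusted p = 0.00188, edgeR), a call also lost with the GC offset (-0.09, adjusted p = 0.493). The median log2 fold change of the list against vehicle was between -0.01 and 0.03 in the 3 comparisons, beside 0.00 over all genes.

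Among 29 other immediate early genes, 4 rose and 1 fell with anastrozole, 8 rose and 1 fell with E2, and 6 rose and 1 fell with both agents, where 3.67%, 12.0% and 5.04% of all genes were called in either direction. KLF10, an early gene of TGF-beta and estrogen signaling that encodes a repressor, was at 55.9, 59.8 and 56.6 CPM with vehicle, 73.6, 69.1 and 69.5 with anastrozole, 83.8, 86.7 and 76.7 with E2, and 79.0, 74.6 and 74.8 with both agents. All treated libraries lay above all vehicle libraries, and the log2 fold changes were 0.30 (adjusted p = 2.03e-04), 0.52 (adjusted p = 3.79e-22) and 0.41 (adjusted p = 4.30e-13), by edgeR. BTG2, an antiproliferative gene, rose by 0.33, 0.32 and 0.31 on the log2 scale in the same order. PLK2, a kinase gene, rose with anastrozole (log2 0.19, adjusted p = 4.98e-04, edgeR), and RHOB, which encodes a small GTPase, had a log2 fold change of -0.23 with E2 (adjusted p = 4.62e-09, edgeR), where BTG1 rose (log2 0.23).

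EGR3, a relative of EGR1, was at 2.26, 1.60 and 1.71 CPM with vehicle, 1.51, 1.72 and 2.01 with anastrozole, 3.15, 3.66 and 2.50 with E2, and 3.89, 3.69 and 3.86 with both agents. It separated the libraries with E2 from those without it, as ATF3 did. EGR3 was 2.06-fold higher with both agents than with vehicle (log2 1.04, SE 0.22, adjusted p = 1.59e-04, edgeR) and 2.19-fold higher than with anastrozole (log2 1.13, SE 0.23, adjusted p = 2.46e-04, edgeR). For E2 alone the log2 fold change was 0.75 (adjusted p = 0.0142, edgeR), not passed in limma-voom (adjusted p = 0.0842). In the anastrozole comparison limma-voom called 0 of the 29 genes and edgeR 2 to 7 of them when 1 library was left out.

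Among 20 genes of MAP kinase and mRNA decay feedback, 1 rose with anastrozole, 4 rose and 1 fell with E2, and 6 rose and 1 fell with both agents, beside the same shares of all genes, so that the single call with anastrozole is near the background. DESeq2 called 0, 1 and 3 of the 20 in these comparisons, and limma-voom 0, 2 and 4. When 1 library was left out, edgeR called 1 to 2 with anastrozole, 3 to 5 with E2 and 4 to 7 with both agents. The single call with anastrozole was TNFAIP3, which the list holds although it encodes the NF-kappaB inhibitor A20. TNFAIP3 was at 7.52, 7.38 and 6.85 CPM with vehicle, 10.2, 13.5 and 10.8 with anastrozole, 13.96, 12.8 and 12.8 with E2, and 12.9, 13.1 and 13.7 with both agents. No treated library overlapped vehicle, and the log2 fold changes were 0.66 (adjusted p = 2.09e-04), 0.86 (adjusted p = 2.46e-10) and 0.87 (adjusted p = 1.53e-11), by edgeR. The first of these did not pass in limma-voom (adjusted p = 0.109). With both agents the ERK pathway inhibitor genes SPRED1 (log2 0.57, adjusted p = 2.83e-04) and DUSP4 (log2 0.43, adjusted p = 3.36e-04, edgeR) rose too. DUSP4 was also higher with both agents than with E2 (log2 0.29, adjusted p = 0.0161) or anastrozole (log2 0.37, adjusted p = 0.0142), by edgeR. Neither of these passed in limma-voom (adjusted p = 0.107 and 0.157), nor did DUSP4 with both agents against vehicle (adjusted p = 0.0838), and the difference from E2 was lost with the GC offset (log2 0.26, adjusted p = 0.147, edgeR). With E2, DUSP5 had a log2 fold change of -0.31 (adjusted p = 0.0027, edgeR), and SPRY4, at 3 to 26 reads per library, of 1.28 (adjusted p = 0.00917, edgeR, and 0.0711 in limma-voom). With the GC offset, 3 of the 5 calls with E2 were kept in edgeR, where 7.58% of all genes were called.

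The next list held 21 genes of the kinases upstream and of the serum response factor pathway. Of all genes, 3.67% were called with anastrozole, 12.0% with E2 and 5.04% with both agents. By edgeR none of the 21 was called with anastrozole or with both agents against vehicle. In these comparisons 3 and 2 of the 21 had an unadjusted p under 0.05, as did 3198 and 3167 of all 21132 genes. With E2 only MAPK9 rose (log2 0.12) and MKL1 fell (log2 -0.24), at adjusted p values of 0.0453 and 0.0332 in edgeR. With the GC offset neither passed (MAPK9 0.06, adjusted p = 0.516, and MKL1 -0.16, adjusted p = 0.239). DESeq2 and limma-voom called 0 of the 21 in these 3 comparisons, and edgeR called 0 to 5 with E2 when 1 library was left out. With anastrozole edgeR called 0 to 2 when 1 library was left out. It called 1 with the GC offset, where 2.90% of all genes were called.

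Of 20 genes known as AP-1 targets in other systems, 2 rose with anastrozole, 2 with E2 and 5 with both agents, and none fell, beside 3.67%, 12.0% and 5.04% of all genes called in these comparisons. PLAU, which encodes urokinase and has AP-1 sites in its enhancer, was at 1.94, 1.82 and 1.40 CPM with vehicle, 2.81, 3.13 and 3.58 with anastrozole, 4.02, 3.78 and 3.89 with E2, and 3.58, 3.83 and 3.72 with both agents. All treated libraries lay above vehicle, and the log2 fold changes were 0.87 (adjusted p = 0.0231), 1.17 (adjusted p = 9.17e-06) and 1.10 (adjusted p = 7.82e-05), by edgeR, the first not passing in limma-voom (adjusted p = 0.143). VEGFA, the angiogenic growth factor, rose 1.30-fold, 1.31-fold and 1.28-fold in the same order. HBEGF, an EGF receptor ligand gene, rose 1.77-fold with both agents (adjusted p = 0.0159, edgeR), but it did not pass in DESeq2 (adjusted p = 0.225) or limma-voom (adjusted p = 0.181). The remaining calls with both agents, AREG (log2 0.51) and TGFB1 (log2 0.41), are named after their values were seen. The count of 5 was 2 in DESeq2, 2 in limma-voom and 2 to 4 when 1 library was left out. The count of 2 with E2 was 1 in DESeq2 and 5 with the GC offset, where 7.58% of all genes were called. The count of 2 with anastrozole was 1 in DESeq2, 1 in limma-voom and 1 to 2 when 1 library was left out. The median log2 fold change of the 20 was 0.05, 0.14 and 0.32.

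**Figure D4:**
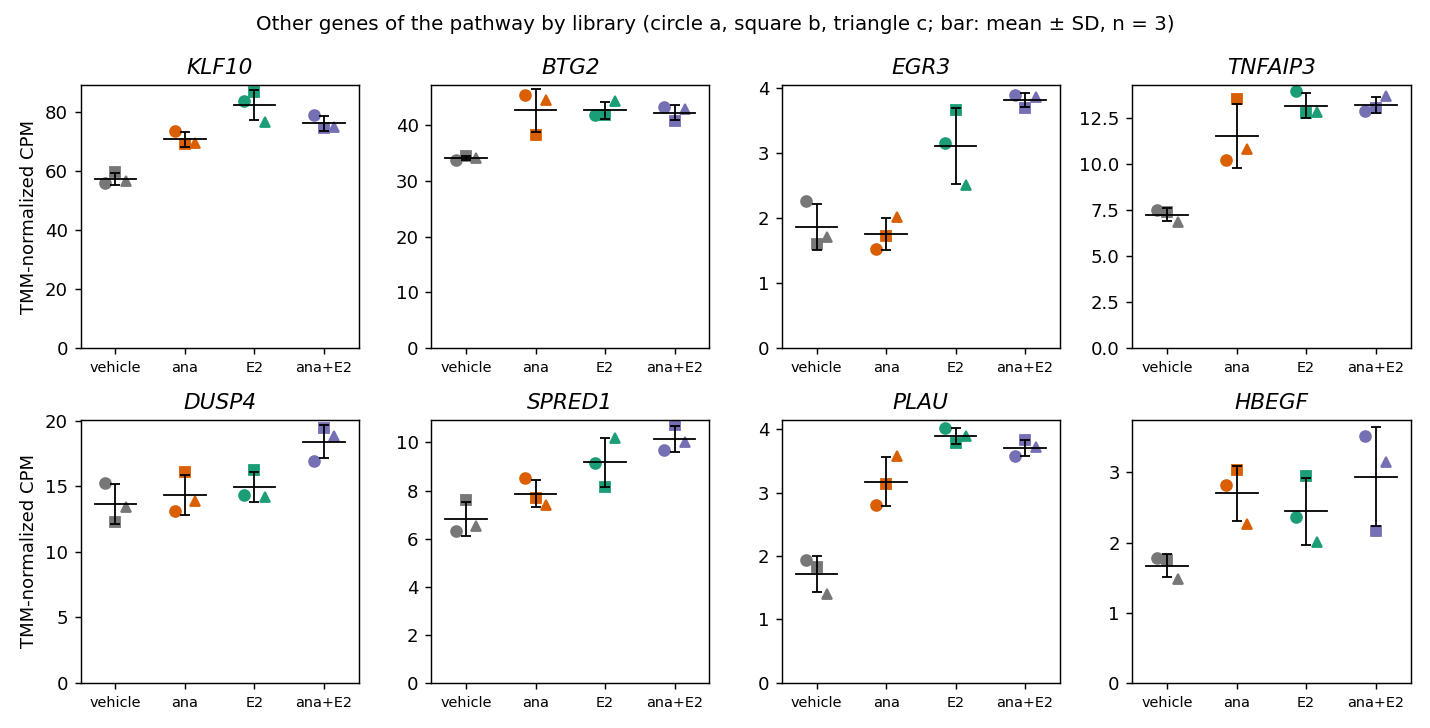
Level of 8 other pathway genes in every library, in TMM-normalized CPM on axes that start at 0, for vehicle, anastrozole (ana), E2 and both agents (ana+E2), with the mean and SD of the 3 libraries as lines. No treated library overlaps vehicle for KLF10, BTG2, TNFAIP3, PLAU or HBEGF, EGR3 is high only in the libraries with E2, and DUSP4 is highest in the libraries with both agents.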

How the data were processed

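The authors sequenced RNA from T47D cells, and the sample labels and the study's methods differ on whether poly(A) or total RNA was used. According to the submitters' processing notes, reads were aligned with TopHat2 2.0.14 and Bowtie2 2.2.6 to hg19 and counted with HTSeq. The deposited values are raw read counts per gene, not normalized, and the strand setting was not given in the sources used here. The 5 summary lines of the table stayed out of library sizes and tests, and 32.7% to 33.5% of the reads in it were on genes. Genes with no read in any library (4238) were left out, leaving 21132.

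Counts were scaled by TMM and tested with edgeR 4.0.16 (robust quasi-likelihood F test, 3 libraries against 3 for each pair of groups, and all 12 for the interaction) in R 4.3.3, with Benjamini-Hochberg adjustment over all genes at 0.05. Each SE was taken as the absolute log2 fold change over the root of its F value. Counting error is part of that fit, and reads carried no molecular identifiers. Alternatives were DESeq2 size factors, library size alone, filterByExpr, the DESeq2 1.42.0 Wald test, limma-voom 3.58.1, 12-library fits, the replicate letter as a block, a GC offset (lowess, span 0.5) without and with that block, and leaving out each library. The code was tested on simulated counts. GC content and positions came from GENCODE 44 on GRCh37, which gave a GC value for 98.3% of the well-measured genes (log2 CPM of 3 or more). Promoter sequences came from RefSeq GRCh38.p14, and no coordinates were converted. The 10 genes are all named. Of each pathway list, the 3 genes with the lowest adjusted p per comparison could be named, and FOSL1 always. Members and lists were chosen with earlier results of these data known.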

Additional observations from a re-analysis of the deposited data

Results flagged for a closer look

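The interaction term of anastrozole and E2 was past the threshold in edgeR for 15 genes of the pathway lists, and for none of the 10 members. Of all genes 10.9% were called, or 2.62% with the GC offset. The 15 were 1 of 13 other AP-1 genes, 8 of 29 immediate early genes, 2 of 20 feedback genes, 2 of 21 upstream genes and 2 of 20 AP-1 targets. No test compared these shares with that of all genes. Given here are the 10 with the lowest adjusted p, at most 3 per list, and the other 5 are immediate early genes. On the log2 scale, the effect of both agents was below the sum of the single effects for PLAU (-0.94, adjusted p = 0.025), TNFAIP3 (-0.65, adjusted p = 0.00197), KLF10 (-0.42, adjusted p = 2.13e-06), VEGFA (-0.41, adjusted p = 3.53e-10), DUSP16 (-0.27, adjusted p = 0.038), PLK2 (-0.25, adjusted p = 2.75e-05) and MKL2 (-0.20, adjusted p = 0.011). It was above the sum for JDP2 (0.34, adjusted p = 0.0239), MAP2K7 (0.30, adjusted p = 0.0416) and RHOB (0.27, adjusted p = 7.87e-05). The exon GC content of these genes ran from 42.1% to 62.4%, and with a GC offset 5 of the 10 were still called in edgeR. They were PLAU (-1.03, adjusted p = 0.0316), TNFAIP3 (-0.64, adjusted p = 0.00617), VEGFA (-0.53, adjusted p = 5.91e-26), KLF10 (-0.41, adjusted p = 2.24e-07) and PLK2 (-0.15, adjusted p = 0.0106). MAP2K7, the most GC-rich of them, went to 0.07 (adjusted p = 0.896). For the 5 lists in the order above, DESeq2 called 0, 8, 0, 1 and 1 genes and limma-voom 0, 7, 2, 1 and 2. With 1 library left out, edgeR called 0 to 3, 6 to 8, 1 to 3, 1 to 7 and 1 to 2.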

How the results depend on the processing

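Over the 10 genes, 7 comparisons and all alternatives, 1027 of 1100 values kept their side of the threshold, 17 lost a call and 25 gained one, and 31 in DESeq2 had no adjusted p. The sign changed in 73 of the values, in 27 of the 70 pairs of gene and comparison, and none of these was called in either fit. ATF3 with E2 and ATF3 and FOSL2 with both agents, each against vehicle, were called throughout. Of the members past the threshold with anastrozole (0), the replicate block gave 1 (JUND lower), the GC offset 1 and the GC offset with the replicate block 1 (ATF3 higher), and leaving out 1 library 0 to 3. With E2 (2), the DESeq2 Wald test and limma-voom each gave 1, the GC offset 3 with or without the block (adding JUND), and leave-one-out 1 to 2. With both agents (3), both tools gave 2, and leave-one-out 2 to 3. For anastrozole against E2 (0), the replicate block, the GC offset and their combination each gave 1 (JUND), and leave-one-out 0 to 2. For both agents against E2 (0), the GC offset with or without the block gave 1 (JUND), and leave-one-out 0 to 0. For both agents against anastrozole (1), filterByExpr, DESeq2 and limma-voom gave 0, the replicate block 2 alone or with the GC offset (FOSL2 and JUND), the GC offset 1 (JUND in place of FOSL2), and leave-one-out 0 to 2. DESeq2 gave no adjusted p for FOSL2 there. For the interaction (0), the replicate block gave 1 (JUND higher), and leave-one-out 0 to 2. The cause was not tested. Over the well-measured genes, libraries with the same letter did not deviate together (correlations -0.20 to 0.18, no comparison with every pair over 0.1). For JUND, however, library c was the highest of every group. The replicate block without the GC offset called the fall of JUND with anastrozole (log2 -0.27, adjusted p = 8.33e-04, edgeR). What the letters stand for is not stated. FOS, FOSB and EGR1 had the lowest counts of the 10 genes, and the part of low counts in their results was not tested.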
